A study of Mus musculus with 18 samples.

Results

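Granulocytes of the mouse spleen, sorted as Ly6G+ cells, were set against all other sorted populations of the same experiment. Their members are the 2 arrays whose titles name the granulocyte population (GN), of 18 arrays in all, and they were chosen by title alone. Affymetrix Mouse Gene 1.0 ST arrays measured the transcripts of 9 immune cell populations, 2 arrays each, from male mice of the C57BL/6 background aged 6 weeks. All mice had received 10000 U of interferon gamma (IFNg) under the skin 2 h before the cells were taken, so GN and the populations they were compared with share that treatment. Untreated mice, other times and further populations were not analysed here, and no value below measures a response to IFNg. Cells were sorted by flow cytometry into a reagent for RNA extraction. The 8 other populations were dendritic cells (DC, CD11c+ MHCII+ Flt3+), macrophages (MF, F4/80+ ICAM2+), natural killer cells (NK, NK1.1+ TCRB-), NK1.1+ T cells (NKT, NK1.1+ TCRB+), CD4+ T cells (T4, CD4+ TCRB+), CD8+ T cells (T8, CD8+ TCRB+), gamma delta T cells (Tgd, TCRgd+ TCRB-) and CD25+ CD4+ T cells (Treg, CD4+ TCRB+ CD25+). MF came from the peritoneal cavity and the others from spleen, so tissue and cell type cannot be told apart in GN against MF.

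Ly6G is a surface protein that in the mouse marks neutrophils, the most numerous granulocytes. Neutrophils are short-lived phagocytes made in bone marrow, where they fill azurophil, specific and gelatinase granules one after the other as they mature. They find microbes with chemoattractant and pattern recognition receptors, kill them with granule proteins and an oxidase, hold few mitochondria and draw their energy largely from glycolysis.

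Levels are log2 intensities. A difference is the mean log2 level of GN minus the unweighted mean of the 8 other population means, given with the SE of a limma model over all 18 arrays, so a positive difference means higher in GN. A gene passed when its Benjamini-Hochberg adjusted p over all genes was under 0.05 and the difference was at least 2-fold. A stricter count took genes that passed in the same direction against each of the 8 populations. Precision is limited by having 2 arrays in each population. Whether these came from separate mice is not stated in the labels, and p-values therefore reflect the spread between arrays alone, which may be technical. Array values are shares of each population's RNA, and fewer cells of a type and less RNA per cell cannot be told apart.

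Arrays had median intensities of 138.5 to 151.0. Pearson's r between the GN arrays was 0.9933 over all 24922 probe sets, within the 0.9901 to 0.996 of the other populations. The 12 granulocyte markers, among them Ly6g, S100a8 and Mmp8, had summed intensities of 91105 and 103151 on the GN arrays. They summed to 8691 on DC replicate 1 and to 30710 on DC replicate 2, which are 8.95% and 31.6% of the GN mean, and to between 744 and 2634 on the other 14 arrays. Replicate 2 of DC thus stood apart, and the part of these transcripts in each DC value was not tested. Counts are therefore also given without DC. Markers of lymphocytes were low in GN: 7 T cell markers summed to 846 and 828 on the GN arrays, against 697 to 27508 on the others, 8 NK cell markers to 531 and 510 against 362 to 36081, and 9 B cell markers to 917 and 1001 against 737 to 3702. The 7 monocyte markers summed to 4169 and 3671 in GN, above the median of 3122 of the other arrays and below the 20832 of the highest MF array, and the 12 macrophage markers to 5636 and 5960, against a median of 1476 and a highest value of 42070 in MF. The 10 eosinophil and mast cell markers summed to 1308 and 1254 in GN, against at most 1109 elsewhere. Of these, Siglecf and Ccr3, receptors of eosinophils, were higher in GN by 1.39 and 1.73, whereas the granule protein genes Epx and Prg2, at 0.18 and 0.43, did not pass.

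In the comparison of GN with the mean of the 8 other populations, 1389 of 19752 genes (7.03%) were higher and 2317 (11.7%) were lower. These shares are the background for the counts of gene lists in the same comparison below. Large differences were more often upward: 130 genes were higher and 23 lower by at least 16-fold. GN were higher than each of the 8 populations for 496 genes (2.51%) and lower than each for 1008 (5.1%), and without DC these counts were 627 and 1187. Both GN arrays lay above all 16 others for 3993 genes (20.2%) and below all of them for 3315 (16.8%). Among the 1389 higher genes, 1053 were also higher than each of the 6 lymphoid populations (5.49% of all genes were), 890 higher than DC (5.77%) and 828 higher than MF (6.59%). Of the 2317 lower genes, 1584 were lower than each lymphoid population (8.1%), 1573 lower than DC (11.1%) and 1638 lower than MF (14.1%). These comparisons share the GN arrays, and each compared population is also part of the mean of the 8, so overlap is partly built in. Correlation with GN over all probe sets was highest for DC, at a mean r of 0.9, and for MF, at 0.875. It lay between 0.83 and 0.857 for the lymphoid populations. Both GN arrays had their highest r with DC replicate 2, the DC array with more of the granulocyte marker transcripts. These r values are across probe sets of the same arrays and describe likeness only.

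**Figure D1:**
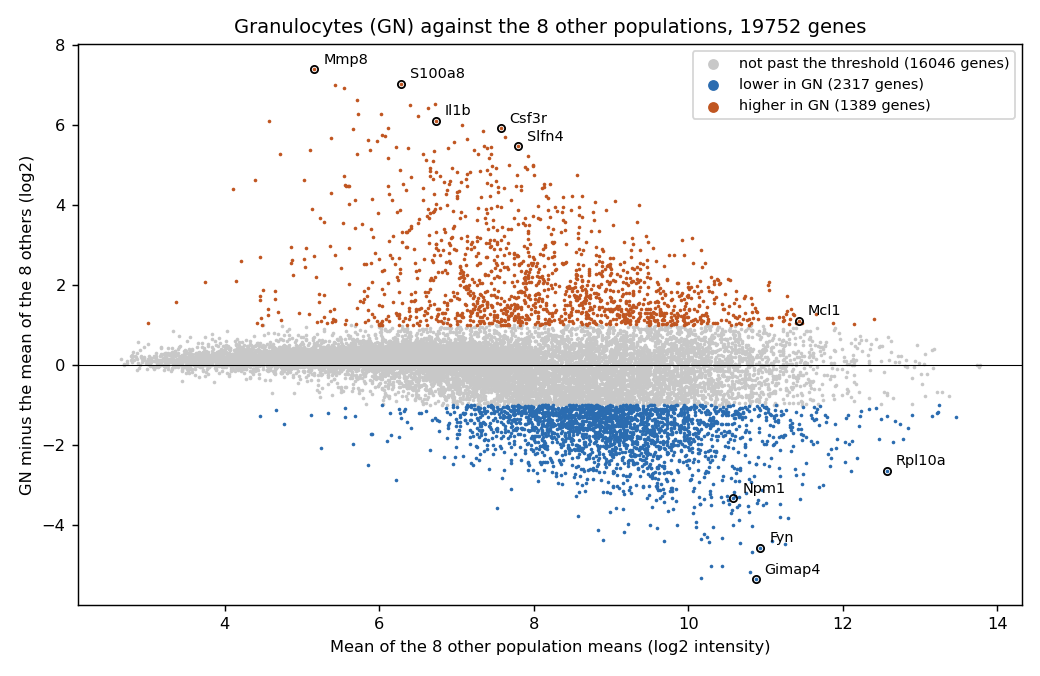
Each point is 1 of 19752 genes, placed by the mean log2 intensity of the 8 other populations (horizontal axis) and by the log2 difference of GN minus that mean (vertical axis). The 1389 orange points passed as higher in GN and the 2317 blue points as lower. Mmp8 lies highest at 7.38 and Gimap4 lowest of the labelled genes at -5.35.

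All 8 measured genes of specific granule proteins and all 5 of gelatinase granule proteins were higher in GN, against 7.03% of all genes, with median differences of 5.54 and 4.27, against 0.13 over all genes. Mmp8, the neutrophil collagenase, was counted in the gelatinase list here, and the granule that stores its protein was not tested. It stood at 12.40 and 12.68 on the GN arrays, while the other 16 arrays ran from 4.37 to 10.09 with a median of 4.57. Both GN arrays lay above every other array, and the highest of those was a DC array. The difference of 7.38 ± 0.34 is 166-fold (adjusted p = 3.37e-12). Ngp, which encodes neutrophilic granule protein, had levels of 13.16 and 13.31 in GN, against 5.23 to 12.38 elsewhere (median 5.91), and a difference of 6.52 ± 0.39. Ltf (lactoferrin, an iron-binding antimicrobial protein), Lcn2 (lipocalin 2, which binds bacterial siderophores) and Camp (the cathelicidin antimicrobial peptide) were higher by 6.43, 5.70 and 5.41. Mmp9, gelatinase B, reached 12.98 and 13.01 in GN. Outside GN its levels ran from 6.50 to 10.86, and its highest other population mean was that of NKT, not DC. Genes of azurophil granules, which are filled first during maturation, differed less: Mpo (myeloperoxidase) by 2.57, Elane (neutrophil elastase) by 2.17, Ctsg (cathepsin G) by 1.93 and Prtn3 (proteinase 3) by 1.40. Ms4a3, at 0.83, did not pass. Of these, Prtn3 was higher in MF than in GN, with a difference of GN minus MF of -1.62. Without DC among the other populations, the higher genes were again 8 of 8, 5 of 5 and 4 of 5 in the specific, gelatinase and azurophil lists.

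A C/EBP-like motif (TTGNNNAA, on both strands) was searched in the 250 bases before each start. The promoters of Mmp8 and Ngp are printed because both genes hold the motif and have the largest differences in the gelatinase and specific lists. A match in each was thus given by the choice. C/EBP factors are the transcription factors of granule genes in myeloid cells. The motif was present in 6 of 7 specific granule genes with a promoter window (85.7%) and 3 of 4 gelatinase granule genes (75%), in 3 of 10 genes of cytosolic neutrophil proteins (30%), described below, and in 33.7% of all 15435 windows and 36.4% of those of genes higher in GN. Matches can overlap one another, and a match describes letters, not binding. Sequences are from RefSeq, build GRCm38.p6, 5′ to 3′, with motif matches in capitals: Mmp8 at chr9:7558179-7558428 on the plus strand and Ngp at chr9:110419558-110419807 on the plus strand.
Mmp8: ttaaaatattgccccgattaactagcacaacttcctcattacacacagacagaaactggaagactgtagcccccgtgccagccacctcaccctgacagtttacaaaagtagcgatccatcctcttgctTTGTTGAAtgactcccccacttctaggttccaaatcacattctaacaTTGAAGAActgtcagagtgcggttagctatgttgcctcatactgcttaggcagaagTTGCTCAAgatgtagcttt
Ngp: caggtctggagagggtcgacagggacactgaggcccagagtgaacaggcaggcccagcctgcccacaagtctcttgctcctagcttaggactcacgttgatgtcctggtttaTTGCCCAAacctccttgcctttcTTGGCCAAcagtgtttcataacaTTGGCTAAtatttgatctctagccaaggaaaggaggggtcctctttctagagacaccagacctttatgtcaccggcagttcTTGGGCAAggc
Mmp8 held 3 matches and Ngp 4.

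Cytosolic proteins of neutrophils were higher as well, all 11 measured members, with a median difference of 4.0. S100a8, a subunit of calprotectin, stood at 13.23 and 13.36 in GN. The other arrays ran from 5.24 to 11.31, with a median of 5.68. S100a9, its partner, was higher by 5.85, Anxa1 (annexin A1, which limits inflammation) by 4.77, Stfa2 (a stefin, an inhibitor of cysteine proteases) by 4.39 and S100a6 by 3.73. Padi4, the enzyme that citrullinates histones, was higher by 4.0 than the mean of the others. It was higher still in MF, where its difference of GN minus MF was -0.84.

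**Figure D2:**
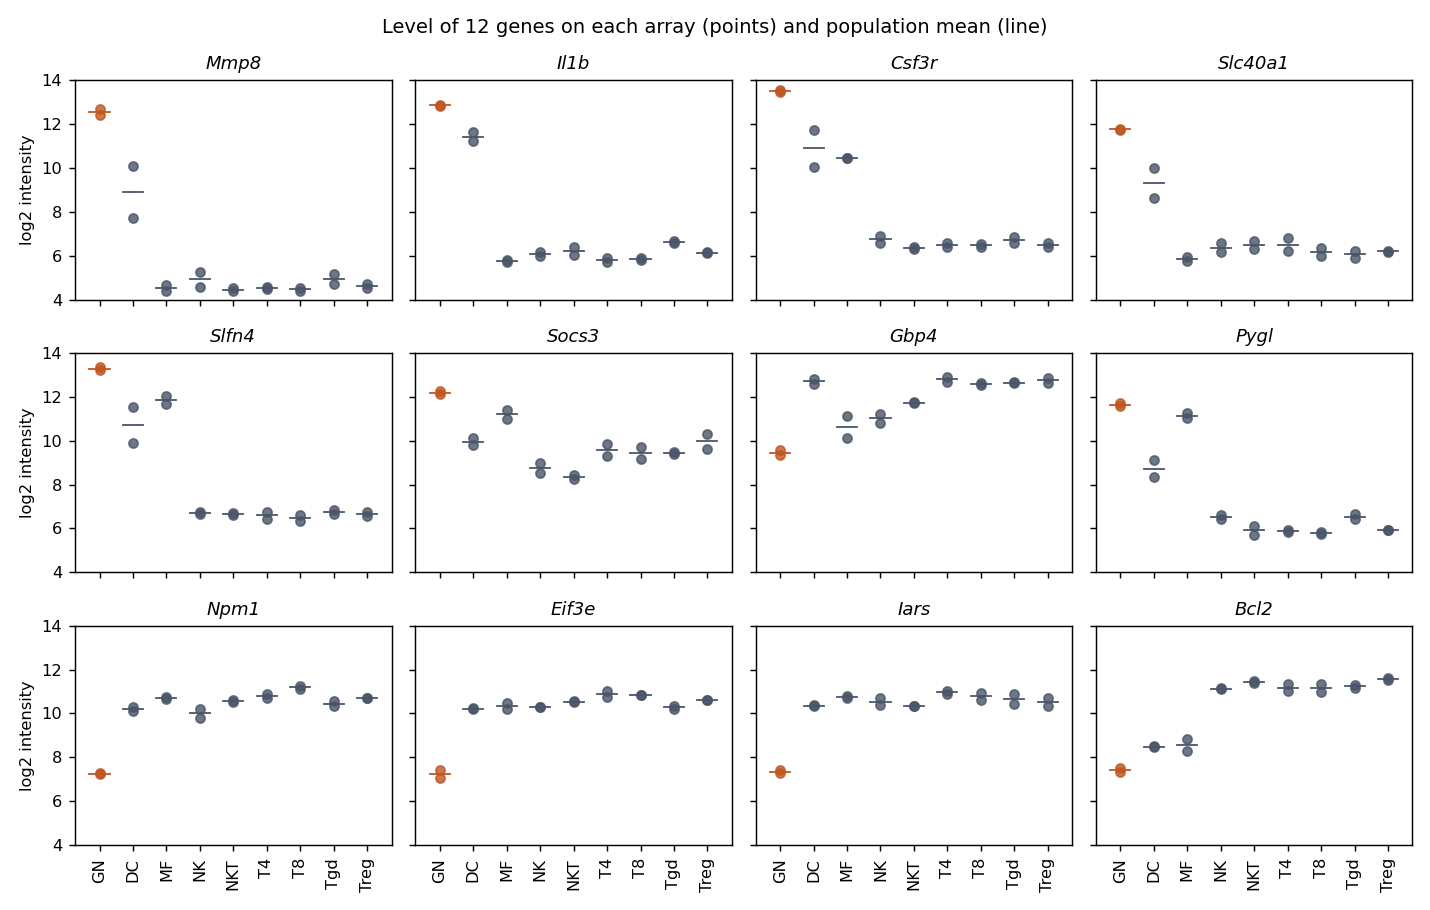
Log2 intensity of 12 genes on each array (points) with the population mean (line), GN in orange and the 8 other populations in grey. Mmp8, Il1b, Csf3r, Slc40a1, Slfn4, Socs3 and Pygl are highest in GN, and Gbp4, Npm1, Eif3e, Iars and Bcl2 are lowest in GN, with the 2 points of DC apart for Mmp8.

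Receptors for chemoattractants and for growth factors of myeloid cells were mostly higher in GN. Of 11 measured chemoattractant receptors 7 were higher (63.6%, against 7.03% of all genes) and 1 lower (9.09%, against 11.7%), with a median of 2.74. Cxcr2, which binds neutrophil-attracting chemokines, had levels of 12.26 and 12.65 in GN, against 4.27 to 10.76 on the other arrays (median 4.60), a difference of 6.91 ± 0.23. Its paralog Cxcr1 was higher by 2.74, Ccr1 by 5.93, the complement C5a receptor C5ar1 by 4.32 and Cxcr4, which holds neutrophils in bone marrow, by 2.57. Ccr1 and C5ar1 were not 2-fold above MF, with differences of GN minus MF of 0.74 and 0.28. Ccr7, which guides lymphocytes and dendritic cells to lymph nodes, was lower, at -2.17.

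Of 21 cytokine receptors 12 were higher (57.1%, against 7.03% of all genes) and 3 lower (14.3%, against 11.7%), with a median of 1.53. The median was 0.22 against DC and 0.34 against MF. Against the mean of DC and MF 6 were higher and 3 lower (5.69% and 12.1% of all genes were). Csf3r, the receptor of G-CSF, the main growth factor of neutrophils, stood at 13.45 and 13.53 in GN. Elsewhere it ran from 6.29 to 11.72 with a median of 6.57, so the groups did not overlap, and the difference was 5.92 ± 0.24. The decoy receptor of interleukin-1, Il1r2, was higher by 5.36, and Il1rap, the shared chain of the signalling receptor, by 3.85. Csf2rb, the common beta chain of the GM-CSF receptor, was higher by 4.19, but stood only 0.54 above the mean of DC and MF. The receptors lower in GN were Il7r (-5.16) and Il2rb (-4.66), which lymphocytes use, and Il6st (-3.48), the signal chain of the interleukin-6 receptor. Il7r was no lower than in MF, where its lowest levels lay: GN had 5.44 and 5.84, and the lowest other array 5.31.

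Innate sensing genes were higher, with some shared by MF or DC. Of 21 pattern recognition receptors 17 were higher and none lower (median 3.31), and all 14 Fc and paired receptors were higher (median 4.48). Trem1, an amplifier of inflammation on neutrophils, stood at 11.75 and 11.36, against 5.21 to 8.66 on the other arrays (median 5.49). The fungal receptor Clec7a (dectin-1) was higher by 5.57, the inflammasome sensor Nlrp3 by 4.27 and the endotoxin receptor Tlr4 by 3.83. The levels of Tlr4 in GN, 9.93 and 10.18, were close to the 9.87 of the highest other array, one of MF. Among inhibitory and Fc receptors Cd33 was higher by 5.23, Fcgr4 by 4.89 and Siglece by 4.82. Fcgr1, at 1.40, was higher in MF, with GN minus MF at -2.01. Against MF alone the medians of the 2 lists were 0.55 and 0.63, and against DC 1.66 and 1.57.

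Adhesion molecules were higher for 7 of 16 (43.8%, against 7.03% of all genes) and lower for 2 (12.5%, against 11.7%). Cd177, a surface protein of neutrophils, was higher by 3.95 and Ceacam10 by 4.52, both above each population. Itgam (CD11b) was higher by 3.83 than the mean of the others, but at -0.45 in GN minus MF. Icam2, a gate marker of MF, was lower, at -1.43 and Pecam1 at -1.58. Of 6 subunits of the phagocyte oxidase 3 were higher: Cybb, the catalytic chain, by 3.82, Ncf1 by 3.36 and Ncf4 by 1.41. Cyba, Rac2 and Rac1, at 0.45, 0.32 and 0.30, did not pass. Only 1 of the 6 was higher than each population. Against the mean of DC and MF, Cybb, at -0.11, and Ncf4, at 0.87, did not pass either.

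Of the 5 genes of the interleukin-1 family on the cytokine list, 4 were higher in GN, and 3 of these were higher than each population. Il1b stood at 12.87 and 12.81 in GN, while the other arrays ran from 5.70 to 11.63 with a median of 6.07. The nearest population was DC, 1.42 below GN, and the difference from the mean of all 8 was 6.10 ± 0.10 (68.7-fold, adjusted p = 5.94e-17). Il1f9 (interleukin-36 gamma) was higher by 7.0 and the receptor antagonist Il1rn by 4.81. Il18 was higher by 2.79, with GN minus DC at -0.04 and GN minus MF at 0.01, and Il1a, at 0.23, did not pass. Il15, a growth factor of NK cells and memory T cells, was higher by 4.64, and the chemokine genes Cxcl2, Cxcl9 and Cxcl10 by 3.80, 2.47 and 2.13. Cxcl9 and Cxcl10, which draw activated T cells, were nevertheless highest in DC, with GN minus DC at -1.78 and -0.55. Of the 27 cytokine and chemokine genes 14 were higher (51.9%, against 7.03% of all genes). Lower were 2 (7.41%, against 11.7%), Ccl5 at -3.35 and Tnfsf10 (TRAIL) at -1.83. Il6, at -0.16, did not pass. Of 10 lipid mediator enzymes 5 were higher, among them Ptgs2 (cyclooxygenase-2) by 4.91, with levels of 12.03 and 11.66 against 5.74 to 11.71 elsewhere, and Alox5 (5-lipoxygenase) by 4.31. None of the 5 passed against each population, with Ptgs2 only 0.44 above DC and Alox5 only 0.09 above MF.

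Transcription factors of the myeloid lineage were higher for 5 of 10. Spi1 (PU.1), which sets myeloid fate, stood at 12.73 and 12.78 in GN, against 5.78 to 12.21 elsewhere (median 6.76). Its difference was 4.75, but 0.56 against DC alone. Cebpe, the factor of terminal granulocyte maturation, was dimmer but set GN apart from each population, at 9.21 and 9.34 against 6.84 to 7.53, a difference of 2.18 ± 0.11. Cebpb and the Myc antagonist Mxd1 were higher by 2.47 and 3.13. Cebpa, Gfi1, Runx1 and Klf4 did not pass, at 0.69, -0.55, 0.34 and -0.01, although Cebpa did after quantile normalization, at 1.01. Irf8, which favours monocytes and dendritic cells over granulocytes, was lower, at -1.68, and lower still against DC (-3.05) and MF (-3.18). Signalling kinases and adaptors of myeloid cells were higher for 9 of 13, with Btk at 3.90 and Syk at 3.69. Only 1 of the 13 was higher than each population. Against the mean of DC and MF 5 were higher (5.69% of all genes were), and Btk, at 0.57, did not pass.

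The next group holds interferon genes, all read in mice given IFNg. Genes known as targets of type I interferon were higher for 22 of 30 (73.3%, against 7.03% of all genes), with a median difference of 1.73. They were lower for 2 (6.67%, against 11.7%). Rsad2 (viperin, an antiviral enzyme) stood at 12.41 and 12.24 in GN, while the others ran from 6.96 to 10.74 with a median of 8.16. Both GN arrays lay above all others. Slfn4, a schlafen gene of myeloid cells, had the greatest difference of the list, 5.47 ± 0.23, with levels of 13.20 and 13.34 against 6.34 to 12.03. Oas3, whose product activates RNase L, reached 12.47 and 12.44 against 8.13 to 10.85, a difference of 2.91. Cutting across the list, Mx1 and Mx2, dynamin-like antiviral GTPases, were lower: Mx1 stood at 6.34 and 5.92, below the 6.57 of the lowest other array, and its difference was -1.87 ± 0.18 (adjusted p = 7.63e-08). Mx2 was lower, at -1.72. In C57BL/6 mice, Mx1 is known to carry a deletion, and what its probe set reads of the gene was not tested. The list median was above 0 against each population, from 0.56 against DC to 2.96 against NK.

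Genes of IFNg signalling and feedback were higher for 11 of 21 (52.4%, against 7.03% of all genes), with a median of 1.05. They were lower for 1 (4.76%, against 11.7%). Socs3, a feedback inhibitor, stood at 12.24 and 12.10 in GN, and the others ran from 8.27 to 11.41 with a median of 9.54. Irf1, a transcription factor that IFNg induces, had 12.96 and 12.86 against 10.91 to 12.41, a smaller difference of 1.05 ± 0.08. Il18bp, a secreted inhibitor of interleukin-18, was higher by 2.62, Cd274 (PD-L1) by 2.01 and Socs1 by 1.73. Of these only Il18bp was 2-fold above each population. The kinase Tyk2 was lower, at -1.49, with 8.59 and 8.23 against at least 9.29 on every other array. For the receptor, Ifngr2 was higher by 1.81 and Ifngr1, at -0.55, did not pass. After quantile normalization, 7 of the 21 genes were higher, and Irf1, at 0.86, was not among them. The list median was 0.48 against DC and 0.79 against MF. Against the mean of DC and MF 5 of the 21 were higher and 2 lower (5.69% and 12.1% of all genes were). Irf1, at 0.52, and Ifngr2, at 0.46, did not pass in that comparison.

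Interferon-inducible GTPases, which attack vacuoles of intracellular microbes, divided into genes on either side of the other populations. Gbp5, Gbp3, Gbp7 and Irgm1 were higher, by 2.20, 1.73, 1.28 and 1.06. Gbp8, Gbp4, Gbp11, Iigp1 and Gm4951 were lower, at -2.78, -2.65, -2.08, -1.39 and -1.04. Gbp4 stood at 9.57 and 9.34 in GN, below all 16 other arrays, which ran from 10.13 to 12.91 with a median of 12.59, and it alone of the 11 was lower than each population. Gbp5 stood at 12.46 and 12.54 against 8.59 to 11.88, above every other array. Against the mean of DC and MF the list held no gene that was higher and 6 of 11 that were lower (5.69% and 12.1% of all genes). Irgm1, at 0.72, and Gm4951, at -0.88, did not pass after quantile normalization. Against the mean of the 6 lymphoid populations Iigp1, at -0.96, and Gm4951, at -0.37, did not pass. The list median differed in sign between populations, from -1.59 against Treg to 1.53 against NK.

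Motifs of interferon-activated factors were searched on both strands of the 250 bases before the start. The promoters of Rsad2, Socs3 and Irf1 are shown because these genes were higher in GN and hold a motif, so their matches were given by the choice. The ISRE-like motif (GAAANNGAAA, bound by interferon regulatory factors and ISGF3) was present in 10 of 23 type I interferon genes with a window (43.5%), in 6.03% of genes higher in GN and in 3.39% of all windows. The GAS-like motif (TTCNNNGAA, bound by STAT dimers) was present in 3 of 18 genes of IFNg signalling (16.7%), 8.18% of genes higher in GN and 7.72% of all windows. Irf1 has 2 windows in the table, and 1 is shown. The sequences, from RefSeq and build GRCm38.p6, carry the matches in capitals: Rsad2 at chr12:26456453-26456702 (minus strand), Socs3 at chr11:117969367-117969616 (minus strand) and Irf1 at chr11:53769764-53770013 (plus strand).
Rsad2: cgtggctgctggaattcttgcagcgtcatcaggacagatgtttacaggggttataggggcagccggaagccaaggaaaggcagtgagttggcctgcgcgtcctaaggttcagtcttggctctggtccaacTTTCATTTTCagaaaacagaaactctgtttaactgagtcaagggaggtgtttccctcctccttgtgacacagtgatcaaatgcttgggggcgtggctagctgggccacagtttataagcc
Socs3: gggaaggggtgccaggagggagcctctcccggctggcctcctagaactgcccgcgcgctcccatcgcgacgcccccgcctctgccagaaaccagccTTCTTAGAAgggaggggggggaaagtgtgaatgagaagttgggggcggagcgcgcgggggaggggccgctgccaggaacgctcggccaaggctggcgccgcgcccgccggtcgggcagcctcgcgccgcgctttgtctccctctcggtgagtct
Irf1: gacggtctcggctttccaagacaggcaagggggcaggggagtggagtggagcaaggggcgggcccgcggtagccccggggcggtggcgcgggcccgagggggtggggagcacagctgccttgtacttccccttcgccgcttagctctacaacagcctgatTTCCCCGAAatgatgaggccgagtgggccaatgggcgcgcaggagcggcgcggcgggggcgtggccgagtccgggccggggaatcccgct
The match lay 120 bases before the start in Rsad2, 154 in Socs3 and 90 in Irf1.

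Genes of cell death and of survival moved in both directions. Casp4, the caspase that senses cytosolic endotoxin, was higher by 3.86, at 11.95 and 12.12 in GN against 5.69 to 10.95 elsewhere, and Casp1 by 2.89 and the pore-forming protein gene Gsdmd by 1.14. Fas, a death receptor, stood at 11.46 and 11.30, against 6.86 to 9.57. Mcl1, the survival factor on which neutrophils rely, was higher by 1.11, with 12.50 and 12.58 against 10.68 to 11.90. Its relative Bcl2 was lower than each population: 7.51 and 7.36 in GN, against 8.28 to 11.60 with a median of 11.15, a difference of -3.16 ± 0.12 (adjusted p = 2.78e-13). Bcl2l1, at 0.92, did not pass. In all, 8 of 19 members were higher (42.1%, against 7.03% of all genes) and Bcl2 alone was lower (5.26%, against 11.7%). Against the mean of DC and MF 2 were higher and 1 lower (5.69% and 12.1% of all genes were). Casp1, Gsdmd and Mcl1, at 0.54, 0.76 and 0.90, did not pass in that comparison. After quantile normalization Mcl1, at 0.76, did not pass and Bcl2l1, at 1.14, did.

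Enzymes of glycolysis and of the pentose phosphate pathway were higher for 14 of 21 (66.7%, against 7.03% of all genes), with none lower (median 1.32). Pygl, glycogen phosphorylase, stood at 11.57 and 11.69 in GN, against 5.72 to 11.27 on the others (median 6.28), MF being nearest. Pfkfb4, which sets a potent activator of phosphofructokinase, was higher by 3.63, Hk3 (hexokinase 3) by 3.44, the lactate exporter Slc16a3 by 2.77 and the glucose transporter Slc2a1 by 2.15. Pgd and Tkt, of the pentose phosphate pathway, were higher by 1.83 and 1.32. Ldha, at -0.24, did not pass. The list median was above 0 against each population, from 0.66 against MF to 1.69 against Tgd.

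Mitochondrial genes were lower in part. Of 15 citric acid cycle enzymes 4 were lower (26.7%, against 11.7% of all genes) and 11 did not pass. The 4 were Idh3a at -2.14, Suclg2 at -2.11, Idh3b at -1.69 and Sucla2 at -1.08. Idh3a, a subunit of isocitrate dehydrogenase, stood at 6.85 and 6.97, against 8.65 to 9.60 on the others. Of 81 subunits of oxidative phosphorylation 14 were lower and none higher (17.3% against 11.7% of all genes, median -0.37), with Ndufs3 of complex I at -2.02 and Atp5g2 of the ATP synthase at -1.92. Mitochondrial ribosomal protein genes were lower for 27 of 74 (36.5%, against 11.7% of all genes, median -0.76). Mrpl13 was lower, at -2.20, while Mrpl33 went the other way, with 10.56 and 10.60 against 8.22 to 9.34 and a difference of 1.80. Mitochondrial import genes were lower for 8 of 24 (33.3%, against 11.7% of all genes), led by Tomm70a at -1.83. After quantile normalization Sucla2, at -0.88, did not pass.

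**Figure D3:**
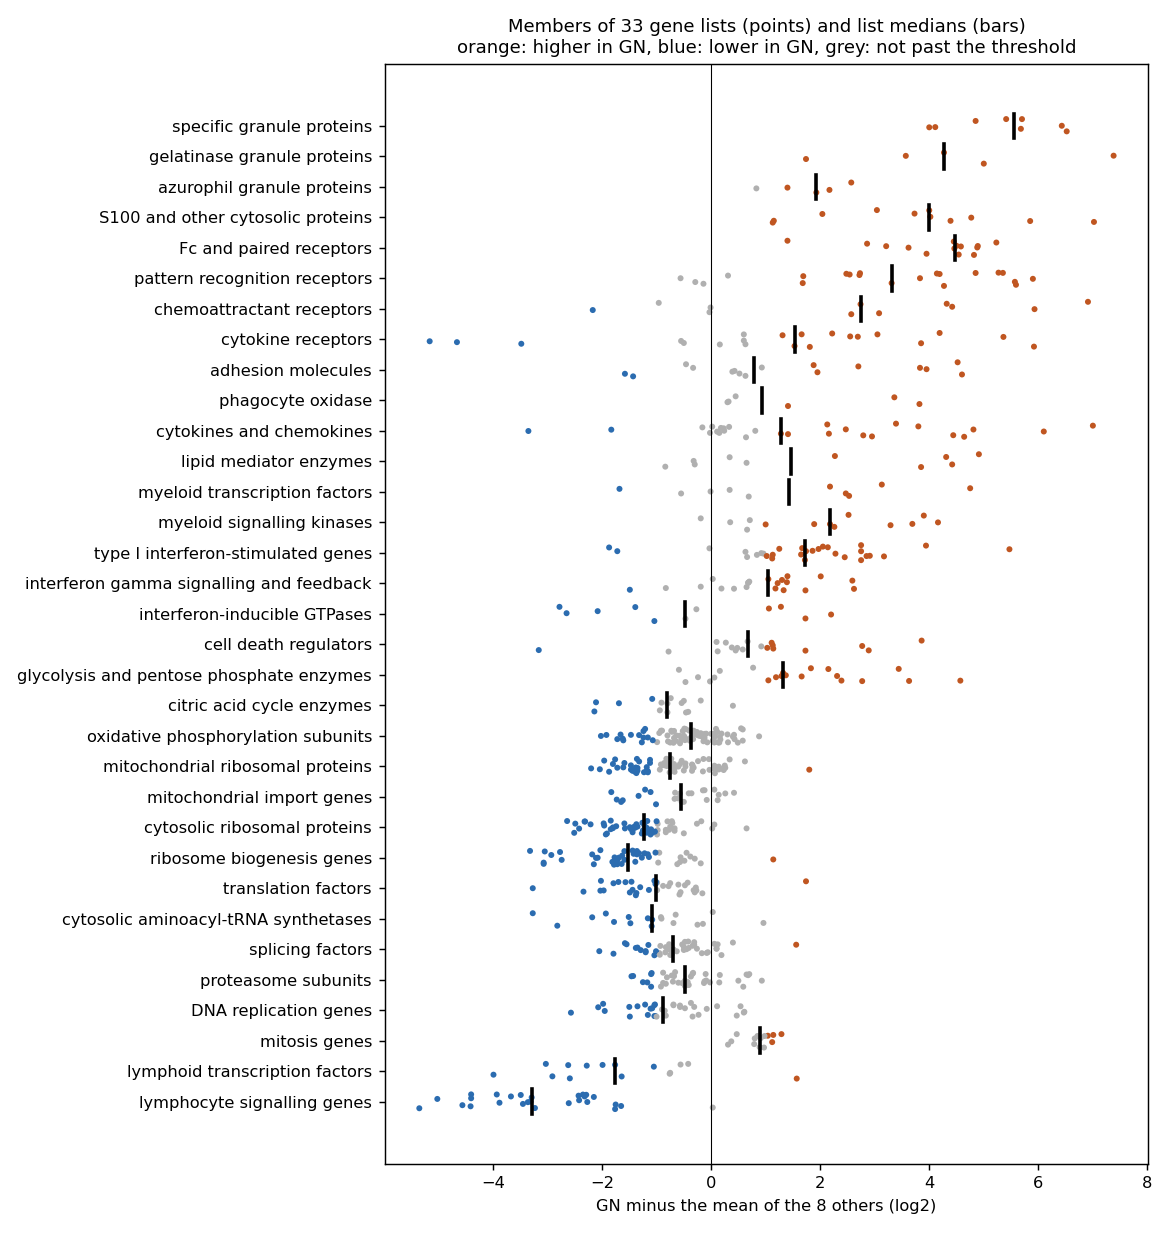
Log2 difference of GN minus the mean of the 8 other populations (horizontal axis) for the measured members of 33 gene lists (rows). Points are genes, orange where higher in GN, blue where lower and grey where they did not pass, and black bars are list medians. Granule proteins lie at the right with medians up to 5.54, and the 4 translation lists have medians from -1.52 to -1.02.

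The machinery of protein synthesis was lower in GN, including genes that every cell uses. In 4 lists of 158 measured genes (ribosomal proteins, ribosome biogenesis, translation factors and aminoacyl-tRNA synthetases) 105 were lower (66.5%, against 11.7% of all genes) and 2 higher, with a median of -1.27. Of the 158, 66 were lower than each of the 8 populations (41.8%, against 5.1% of all genes). Npm1, the nucleolar protein nucleophosmin, stood at 7.29 and 7.23 in GN. On the other arrays it ran from 9.81 to 11.25 with a median of 10.65, so the groups did not overlap. The difference of -3.32 ± 0.10 means that the level in the other populations was 9.99-fold that in GN (adjusted p = 1.20e-14).

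Ribosome biogenesis genes, which make and assemble ribosomal subunits in the nucleolus, were lower for 35 of 46 (median -1.52). Wdr43 and Wdr75, of the early pre-ribosome, were lower, at -3.07 and -3.05, and the RNA helicase Ddx21 at -3.07. Noc4l alone was higher, by 1.14. Among cytosolic ribosomal protein genes 42 of 60 were lower and none higher (median -1.23). Rpl10a had 10.02 and 9.83 in GN, against 12.24 to 12.83 elsewhere, and its difference was -2.64. Rpsa, Rps15a and Rps18 were lower, at -2.51, -2.49 and -2.42. Genes of this family have many near-identical copies, so probes can be shared, and the other 4 probe sets of Rpsa read differences between -1.41 and -2.21. The tissue-limited copy Rpl39l, at 0.06, did not pass.

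Translation factors were lower for 18 of 34 (median -1.02), and the 4 largest differences were of subunits of the initiation factors eIF3 and eIF2B. Eif3e stood at 7.41 and 7.06, against 10.20 to 11.00 on the others, a difference of -3.27 ± 0.09. Eif3b, Eif3i and Eif2b3 followed at -2.34, -2.03 and -2.02. In the other direction Eif4ebp1, an inhibitor of cap-dependent initiation, was higher by 1.74, with 10.54 and 10.41 against 8.11 to 10.06. Among 18 cytosolic aminoacyl-tRNA synthetases, which charge transfer RNAs, 10 were lower (median -1.08). Iars stood at 7.28 and 7.41 against 10.32 to 11.04, and its other probe set gave -2.75 beside its difference of -3.27. Farsb and Eprs were lower, at -2.82 and -2.18, and Wars, which IFNg is known to induce, did not pass at 0.96. The medians of the 4 lists were below 0 against each of the 8 populations, between -0.88 and -1.90.

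**Figure D4:**
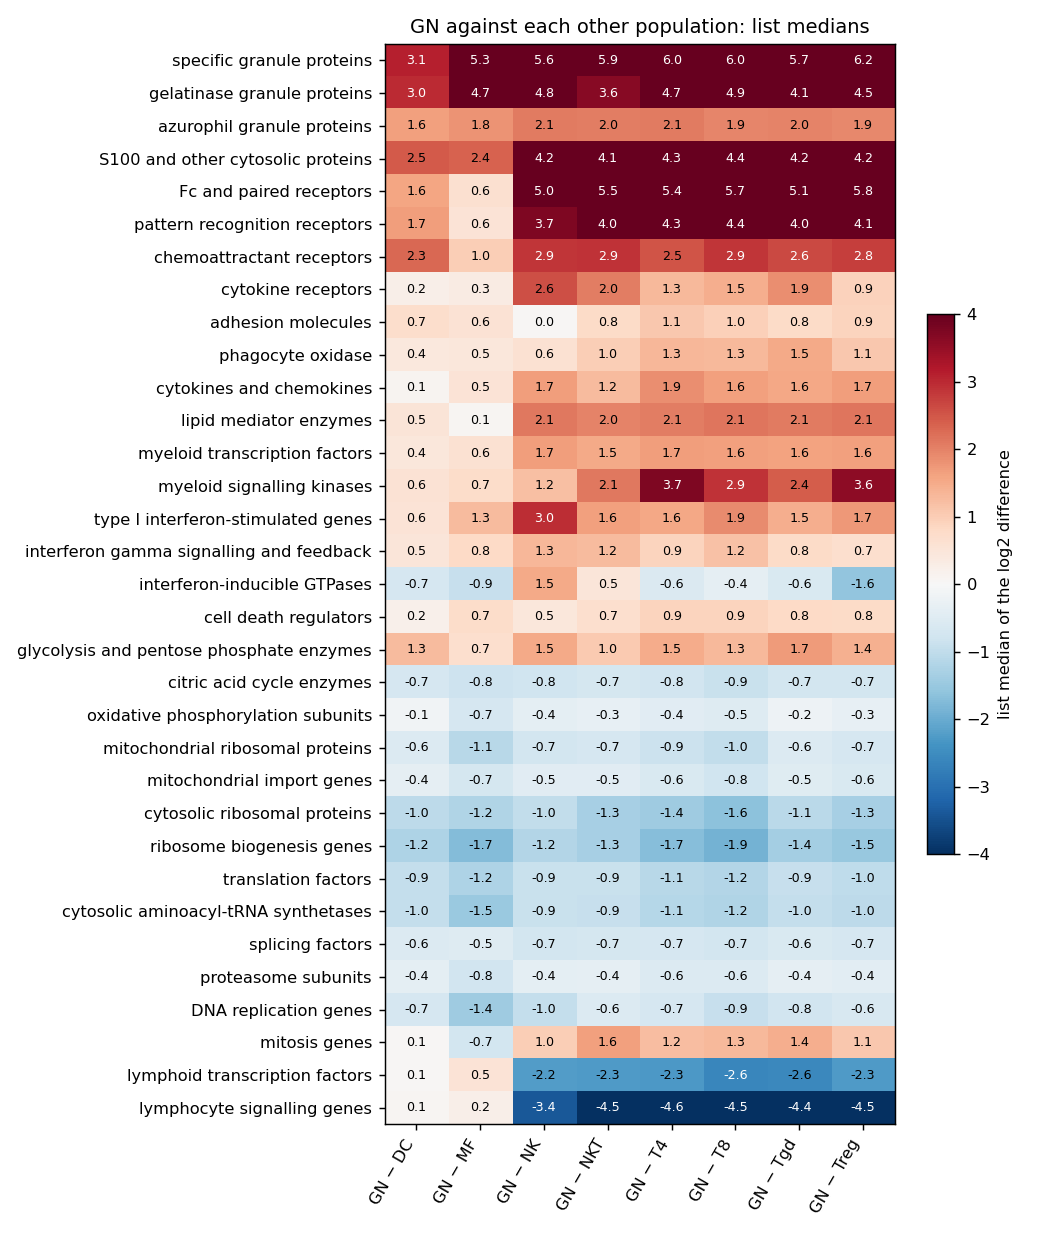
Median log2 difference of GN minus each other population (columns) over the measured members of 33 gene lists (rows), with red above 0 and blue below 0. Granule protein medians are at least 1.65 in every column and translation medians at or below -0.88 in every column, whereas lymphocyte signalling genes are near 0 against DC and MF.

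Splicing factors were lower for 13 of 46 (28.3%, against 11.7% of all genes) and higher for 1 (2.17%, against 7.03%). Their median was -0.70, with Sf3a3 at -2.05 and Hnrnph2 at 1.56. DNA replication genes were lower for 15 of 34 (44.1%, against 11.7% of all genes) and higher for none (median -0.88). Pold2, a subunit of DNA polymerase delta, stood at 7.0 and 6.91 against 8.90 to 9.90, and the helicase subunit Mcm6 was lower, at -2.07. Of 14 mitosis genes 4 were higher and none lower, with a median of 0.90. Ccna2 (cyclin A2) had 9.49 and 9.49 in GN, inside the range of 6.48 to 10.54 of the others, and GN minus MF was -0.81. Without MF among the other populations 10 of 14 mitosis genes were higher, and without DC 8. Proteasome subunits were lower for 7 of 39 and higher for none (17.9% lower, against 11.7% of all genes), with Psmd1 at -1.46. The immunoproteasome subunits Psmb9 and Psmb8, which IFNg is known to induce and which were picked after their values were seen, did not pass at 0.93 and 0.70. After quantile normalization 4 of the 39 proteasome genes were lower.

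Genes of lymphocytes were lower against the mean of the 8 others, of which 6 are lymphoid. Of 27 lymphocyte signalling genes 26 were lower (median -3.29), and 10 of 15 lymphoid transcription factors were lower and 1 higher (median -1.76). Gimap4, a GTPase of lymphocyte survival, stood at 5.44 and 5.60 in GN, against a median of 12.16 and a highest level of 12.55. The lowest other level, 5.81, was in MF. Likewise Gata3, at -3.03, and Ikzf3, at -3.99, were 0.43 and 0.64 above MF. The median of the signalling genes was 0.09 against DC and 0.24 against MF. Fyn, a kinase of antigen receptor signalling, was the exception in that it was lower than each population: 6.16 and 6.58 in GN, against 9.31 to 11.75. Zbtb7b (ThPOK, a factor of CD4+ T cells) was higher by 1.57, with 10.82 and 10.69 against 6.62 to 10.47.

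Some genes lay far from every other population. On the high side Sycp2, known from the meiotic synaptonemal complex, stood at 10.69 and 10.66, against 4.06 to 7.01 elsewhere, so that its nearest population mean lay 4.40 below GN. The long non-coding RNA Mirt2 followed with a gap of 4.21 (a mean level of 12.01 in GN against 4.93 to 8.80), then Ceacam10 with 4.17 and Stfa2 with 4.12. Scrg1 and the metalloreductase gene Steap4 had gaps of 4.03 and 3.93. Slc40a1 (ferroportin, the iron exporter, known from red pulp macrophages) was higher by 5.13, with 11.71 and 11.77 in GN against 5.75 to 9.98. Its highest other mean was that of DC, 9.30, and MF had 5.85. Slc40a1 is on the list of 12 macrophage markers, of which 2 were higher in GN and none lower (median -0.18, and -3.86 in GN minus MF). The other was Adgre1 (F4/80), higher by 1.69 but at -3.56 in GN minus MF. The remaining 10, among them C1qb, Cd163, Vcam1 and Spic at 0.07, 0.13, 0.56 and -0.14, did not pass.

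On the low side the widest gap was that of Hivep2, a zinc finger transcription factor, with 6.17 and 6.08 in GN against 9.72 to 10.88, a difference of -4.31 ± 0.08. GN minus the nearest population mean was -3.67. P2ry10b, a receptor gene, and Taf9b, a subunit of general transcription factor TFIID, had gaps of -3.41 and -3.35, and the small GTPase Rras2 one of -3.17 against NKT. The surface protein gene Cd48 stood at 7.24 and 6.81, against 10.06 to 11.21. Slc38a1, an amino acid transporter, had 7.14 on both GN arrays, against 10.15 to 11.31, and Man1a, a mannosidase of N-glycan processing, was lower, at -3.49. None of these GN levels overlapped with any other array, as for the 16.8% of all genes given above. The genes were picked for wide gaps, so this largely follows from the choice.

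MicroRNA genes are also read by the arrays, through probe sets on the hairpin gene that do not tell mature arms apart. These genes were chosen after their values were seen. Of 294 measured, 13 were higher, 10 of them than each population, and 6 were lower than the mean of the others, or 4.42% higher and 2.04% lower against 7.03% and 11.7% of all genes. Mir23a, Mir27a and Mir24-2 lie within 404 bases on chromosome 8 and were higher by 2.45, 2.44 and 1.48. On the GN arrays Mir23a stood at 9.84 and 9.13 and Mir27a at 10.57 and 9.61, whereas the others reached at most 7.49 and 8.01. Mir29a and Mir29b-1, within 434 bases on chromosome 6, were higher by 2.62 and 1.58. Mir30b and Mir30d were higher by 1.77 and 1.80. Mir342 was lower, at -2.03, and at -0.17 in GN minus MF. MicroRNAs pair with messenger RNAs through the seed, bases 2 to 8, which is in capitals in the mature sequences below, taken from RefSeq (GRCm38.p6).
mmu-miR-23a-3p: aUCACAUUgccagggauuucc
mmu-miR-27a-3p: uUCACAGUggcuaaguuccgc
mmu-miR-24-3p: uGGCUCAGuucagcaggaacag
mmu-miR-29a-3p: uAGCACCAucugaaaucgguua
mmu-miR-29b-3p: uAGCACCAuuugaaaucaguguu
mmu-miR-342-3p: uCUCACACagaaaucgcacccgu
The 2 members of the miR-29 family share the seed AGCACCA, and the 3 of the chromosome 8 cluster have different seeds.

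Between the 2 GN arrays 18 genes (0.0911%) were at least 2-fold apart, against 13 to 143 in the other populations, where 143 was the count of DC. Slc15a2, a peptide transporter of the plasma membrane, had 9.52 on replicate 1 and 7.57 on replicate 2, and it did not pass between populations. Nr4a1, an immediate early gene, had 10.99 and 9.88, and Ppbp, a chemokine gene of platelets, 9.27 and 10.36. Ppbp was higher in GN by 4.12, and the 6 platelet markers summed to 1737 and 2530 in GN, against 707 to 6774 on the others. Gp9, a subunit of the platelet receptor for von Willebrand factor, was higher by 1.24. The other 4 of this list, among them Pf4 and Itga2b at 0.23 and 0.57, did not pass, and all 6 differences were above 0. Immediate early genes, which cell handling can induce, were higher for 8 of 16 and lower for 1, with Atf3 at 2.69 and Fos at 2.26, and their part in other differences was not tested.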

How the data were processed

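Each array's deposited file column holds 1 linear intensity per probe set. According to the submitters' processing notes the authors used Affymetrix Power Tools and the RMA method, which corrects background, normalizes and summarizes probes. Versions, and whether all 18 arrays were normalized together, are not given in the sources used here. Of 24922 probe sets, 21425 have 1 gene symbol in the platform annotation, 1399 several and 2098 none. For the 921 genes with more than 1 probe set the brightest was used, which left 19752 genes. Deposited intensities were converted to log2. In R 4.3.3, limma 3.58.1 (lmFit, contrasts.fit, eBayes with a mean-variance trend) fitted 1 mean per population, and p-values were adjusted over all genes by Benjamini-Hochberg. On simulated data with 50 genes at each of 4 known differences (1.5 and 3 on the log2 scale, up and down), 49 or 50 were recovered. Members, gene lists and tests were chosen with earlier results of these data known. Genes were named by rule: the largest differences from the mean and from each population, members of short lists, the largest and those nearest 0 of long lists (30 or more measured genes), and the largest gaps between the GN arrays. For the largest differences from the mean, only genes whose GN arrays both lay beyond all 16 others were eligible. Alternatives covered the replicate block, variance prior, normalization, filter, probe set rule, thresholds, the set of other populations and leaving out each array.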

Additional observations from a re-analysis of the deposited data

How the results depend on the processing

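The counts of 1389 higher and 2317 lower genes, and of 496 and 1008 against each population, moved by less than 1.5 times under another variance prior, quantile normalization (1415, 2051, 513 and 857), centring on the array median, removal of dim genes, averaged probe sets, and without DC or MF. With no minimum fold they were 7476, 5515, 1920 and 2721, and with an adjusted p under 0.01 and 4-fold 579, 557, 124 and 117. Against the 6 lymphoid populations only, 1084 genes were higher and 1600 lower than each. Against DC and MF only, these counts were 725 and 1491. The share of higher among all calls was 37.5%, or 57.5% with no minimum fold and 51% at 4-fold. Leaving out 1 array at a time gave 1316 to 1452, 2269 to 2376, 465 to 534 and 954 to 1067 genes, and without DC replicate 2 the counts were 1399, 2328, 502 and 995. The 18 genes at least 2-fold apart between the GN arrays were 33 after quantile normalization and 316 at 1.5-fold.

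The labels do not say whether the replicate numbers in the titles pair the arrays, and the main fit did not use them. Deviations of arrays numbered 2 correlated between -0.2 and 0.47 over 36 pairs of populations, and 11 pairs were over 0.1. Their partner arrays carry different numbers in different populations, so these values cannot decide whether the arrays are paired. With the number as a replicate block the counts were 1409, 2345, 517 and 1021.

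Of 44 gene lists, 3 had a count of calls that moved by over 1.5 times after quantile normalization: IFNg signalling (7 higher, 11 in the main result), mitosis (10 higher, 4 in the main result) and proteasome (4 lower, 7 in the main result). Such moves occurred in 17 lists with no minimum fold, 21 at 4-fold and 15 against DC and MF only. Changes of sign were counted only for genes that passed in the main result or in the alternative. Of 203 named genes 12 changed sign in this way, all against the mean of DC and MF only: Prtn3 (-0.02), Fcgr1 (-1.0), Cybb (-0.11), Cxcl9 (-0.30), Ccna2 (-0.31), Gata3 (0.20), C1qb (-2.96), Pf4 (-2.44), Atf3 (-0.38), Adgre1 (-2.58), Il1a (-2.01) and Il18 (-0.02). Genes near 0 that passed in neither may also have changed sign. The causes of the moves after normalization were not tested. RMA flattens differences of dim probe sets, so that their folds are low estimates, and 2 arrays per population limit every comparison.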

Other observations

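Further genes lay far above every other population. Mgam, an alpha-glucosidase of neutrophil granules and of the gut, stood at 12.74 and 12.69 in GN, against 5.92 to 10.16 on the 16 other arrays (median 6.08), and was 6.22 higher than their population means. Arg2, the mitochondrial arginase, had 12.26 and 12.29 against 5.33 to 9.89, a difference of 6.26. Chil1, a chitinase-like protein gene, and Retnlg, a resistin-like hormone gene, were higher by 5.99 and 6.62. All of these had their highest other mean in DC. Both GN arrays lay above all 16 others, which was a condition for naming them and held for 20.2% of all genes. Ifit1bl2, an interferon-induced gene beside the Ifit genes, stood at 11.37 and 11.78 against 5.17 to 8.65, and the transporter genes Abca13 and Slco4c1 were higher by 4.71 and 4.63.

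Further genes with large differences were lower than each population. Uprt, a gene of the uracil phosphoribosyltransferase family, stood at 6.51 and 6.58 in GN, against 9.52 to 10.67 elsewhere, a difference of -3.54. Guf1, a mitochondrial translation factor, was lower, at -3.26, Smarcad1, a chromatin remodeller, at -3.03, and the zinc transporter gene Slc39a10 at -2.95. None of these levels in GN overlapped with another array, as for 16.8% of all genes on the low side. This largely follows from the choice of genes by wide gaps. Cblb, a ubiquitin ligase that dampens lymphocyte activation, and Tcf12, an E protein transcription factor, were lower, at -3.80 and -3.70, and both passed against each of the 8 populations.

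Probe sets without a single gene symbol were tested apart. Of 2098 that the platform annotation does not list with a gene, 109 were higher (5.2%) and 183 lower (8.72%) in GN, against 7.03% and 11.7% of named genes. Of 1399 with several symbols 64 were higher (4.57%) and 283 lower (20.2%).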
